A study of Homo sapiens with 6 samples.

Results

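The genes described here are 10 targets of the transcription factor NF-kB in PC3 cells, an established line grown out of a prostate cancer metastasis in bone: the chemokine genes CXCL1, CXCL2, CXCL3, CXCL8 and CCL20, the cytokine genes CSF2, IL1A and IL6, and the feedback inhibitor genes TNFAIP3 and NFKBIZ. They were chosen by name as known NF-kB targets, and earlier results of these data were known when they were chosen. Their counts of calls, set beside all tested genes below, are therefore a description. They are 10 of the 33514 gene symbols in the count tables, and all 10 were present and passed the filter on low counts. RNA was sequenced from PC3 cells given 50 µM heme (the iron-porphyrin group of hemoglobin) in the culture medium for 2 h, from cells given it for 4 h and from untreated control cells, with 2 libraries per group. All groups were the same line grown in the same serum-containing medium, and the control label names no treatment, so a vehicle is not recorded. No time is given for the controls either, so effects of time or handling cannot be told apart from those of heme. Whether the replicates were cultured separately is not recorded; the p-values therefore rest on the scatter of these libraries alone, and that scatter may be technical.

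NF-kB is a family of dimeric Rel proteins held in the cytoplasm by inhibitors of the IkB family; when kinases mark an IkB for destruction, the dimer enters the nucleus and binds short kB sites near its target genes. The targets include chemokines that attract neutrophils and lymphocytes, cytokines, and inhibitors such as TNFAIP3 that switch the pathway off again. PC3 cells are known for high constitutive NF-kB activity and for secreting interleukin 6 and CXCL8 without stimulation. Many of these messenger RNAs are short-lived, because AU-rich elements in their 3′ untranslated region recruit decay factors.

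In the RefSeq table of windows from 250 bases before to 50 after gene starts (build GRCh38.p14), all 10 genes had an entry, and IL1A and NFKBIZ had 2 starts each. All motifs were searched on both strands. The longer kB-like motif, GGGA followed by any 4 bases and CC, was found for 9 of the 10 genes and in 25.6% of all 35116 windows. A shorter kB-like motif, GGANNTTCC, whose matches can lie inside those of the longer one, was found for 8 of the 10 and in 4.56% of all windows. IL1A held neither, and CCL20 held only the first. The AP-1 motif TGACTCA was found for CXCL8 and IL1A and in 4.95% of all windows, and the antioxidant response element core TGANNNNGC, which can overlap it, for 5 genes and in 41.8% of all windows. In the 16348 windows of tested genes the shares of these 4 motifs were 30.6%, 4.66%, 3.88% and 41.7%. The shares count windows, whereas a gene with 2 starts counted if either held the motif. The 10 were chosen as known NF-kB targets, so their kB-like matches are not an independent finding. The 150 bases before the start are printed for the 3 chemokine genes that fell most, for CXCL8 and for the 3 genes that rose, to set the changes beside the sequence; capitals mark matches to either kB-like motif or to TGACTCA on either strand. For CXCL2, CXCL3, CXCL8, CCL20, IL1A, IL6 and TNFAIP3 the GENCODE release 29 gene reaches upstream of the RefSeq start used here. The same holds for the second listed start of NFKBIZ.
CXCL1, chr4:73869243-73869392, plus strand: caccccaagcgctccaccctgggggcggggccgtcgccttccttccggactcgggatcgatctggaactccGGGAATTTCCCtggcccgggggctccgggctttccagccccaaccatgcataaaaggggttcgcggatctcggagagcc
CXCL2, chr4:74099196-74099345, minus strand: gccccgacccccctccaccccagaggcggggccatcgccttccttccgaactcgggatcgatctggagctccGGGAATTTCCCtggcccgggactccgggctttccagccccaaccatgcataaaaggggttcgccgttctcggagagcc
CXCL3, chr4:74038690-74038839, minus strand: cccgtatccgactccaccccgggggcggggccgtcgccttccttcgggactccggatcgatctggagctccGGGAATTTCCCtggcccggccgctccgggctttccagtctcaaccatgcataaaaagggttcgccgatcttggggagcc
CXCL8, chr4:73740419-73740568, plus strand: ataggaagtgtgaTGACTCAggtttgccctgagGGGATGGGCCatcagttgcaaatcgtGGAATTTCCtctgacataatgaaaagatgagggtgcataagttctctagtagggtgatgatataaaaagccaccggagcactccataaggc
CSF2, chr5:132073639-132073788, plus strand: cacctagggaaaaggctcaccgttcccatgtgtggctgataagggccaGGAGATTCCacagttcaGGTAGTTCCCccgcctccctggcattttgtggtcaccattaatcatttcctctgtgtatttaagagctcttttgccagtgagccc
IL6, chr7:22727050-22727199, plus strand: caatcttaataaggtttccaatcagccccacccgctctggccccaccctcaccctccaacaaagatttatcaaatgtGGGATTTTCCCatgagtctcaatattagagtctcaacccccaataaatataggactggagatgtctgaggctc
IL1A, first listed start, chr2:112784494-112784643, minus strand: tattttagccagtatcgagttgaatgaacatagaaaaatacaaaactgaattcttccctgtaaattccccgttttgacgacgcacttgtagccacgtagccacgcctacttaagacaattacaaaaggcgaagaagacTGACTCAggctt
CXCL1, CXCL2 and CXCL3 carried the same GGGAATTTCCC, its first base at -79, -78 and -79 from the start, and CXCL8 carried GGAATTTCC from -91. Over the 250 upstream bases, CXCL1 was 70.4% identical to CXCL2, 81.4% to CXCL3 and 42.6% to CXCL8. A match describes these letters only and is not evidence of a bound site.

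Reads assigned to genes numbered 53129375 to 55537611 per library, so depth was close to equal, and 16209 genes were tested. CPM below means read counts scaled to a common library size by TMM, and log2 fold changes are given with the standard error (SE) of the edgeR fit. Epithelial markers were abundant (summed 2134 to 2429 CPM at 2 h, 2146 to 2252 CPM at 4 h and 2160 to 2229 CPM in controls, 5 of 5 markers tested). Of the luminal prostate markers KLK3 and FOLH1 were at 0 in every library and KLK2 had at most 1 count. Leukocyte markers, 3 of 8 tested, summed to 55.4 to 63.3 CPM at 2 h, 49.4 to 51.6 CPM at 4 h and 49.1 to 53.8 CPM in controls. CD68, CSF1R and CD14 made up nearly all of this, while the pan-leukocyte marker PTPRC had at most 5 counts. Fibroblast markers, 2 of 4 tested, summed to 41.5 to 48.5 CPM at 2 h, 25.4 to 32.6 CPM at 4 h and 26.5 to 29.1 CPM in controls, nearly all of it COL1A1, while DCN had at most 1 count. Endothelial markers, 2 of 3 tested, summed to 32.9 to 40.4 CPM at 2 h, 18.2 to 20.3 CPM at 4 h and 19.9 to 20.5 CPM in controls, nearly all of it PECAM1. The part of these markers in the results below was not tested. In bulk RNA, fewer cells of a type and less RNA per cell cannot be told apart.

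Several of these genes were among the most abundant messages of untreated PC3. Per kilobase of annotated exon, CXCL8 had a level of 767 ± 65.6 CPM per kb in controls (SD, n = 2), rank 22 of 16094 tested genes with a known length. It was followed by CXCL3 at 432 ± 14.4, CXCL1 at 313 ± 11.2 and IL6 at 259 ± 9.6 CPM per kb (SD, n = 2), at ranks 45, 74 and 97. Below them came CXCL2 at 172, CCL20 at 98.8, TNFAIP3 at 51.4, IL1A at 19.8, NFKBIZ at 15.1 and CSF2 at 8.38 CPM per kb in controls, the last at rank 5336. No neighbours in this order overlapped between the control libraries; with the length of the main coding transcript in place of all exons, NFKBIZ (22.7 CPM per kb) came before IL1A (19.8 CPM per kb) and the rest of the order was the same. After 2 h of heme IL6, at 358 ± 17.9 CPM per kb (SD, n = 2), stood above CXCL3 at 274 ± 60.5 CPM per kb, with no overlap between their libraries. The libraries of CXCL3 and CXCL1 (214 ± 32.5 CPM per kb) overlapped at 2 h, as did those of TNFAIP3 (39.3 ± 5.45) and IL1A (36.8 ± 2.52 CPM per kb). Within each 2 h library CXCL3 still stood above CXCL1, at 231 over 191 and 316 over 237 CPM per kb. TNFAIP3 likewise stood above IL1A, at 35.4 over 35.1 and 43.1 over 38.6 CPM per kb. After 4 h CXCL1 (259 ± 3.55 CPM per kb) and IL6 (258 ± 32.8 CPM per kb) overlapped. Together the 10 genes took 0.365% and 0.439% of gene counts at 2 h, 0.387% and 0.356% at 4 h, and 0.446% and 0.43% in controls.

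**Figure D1:**
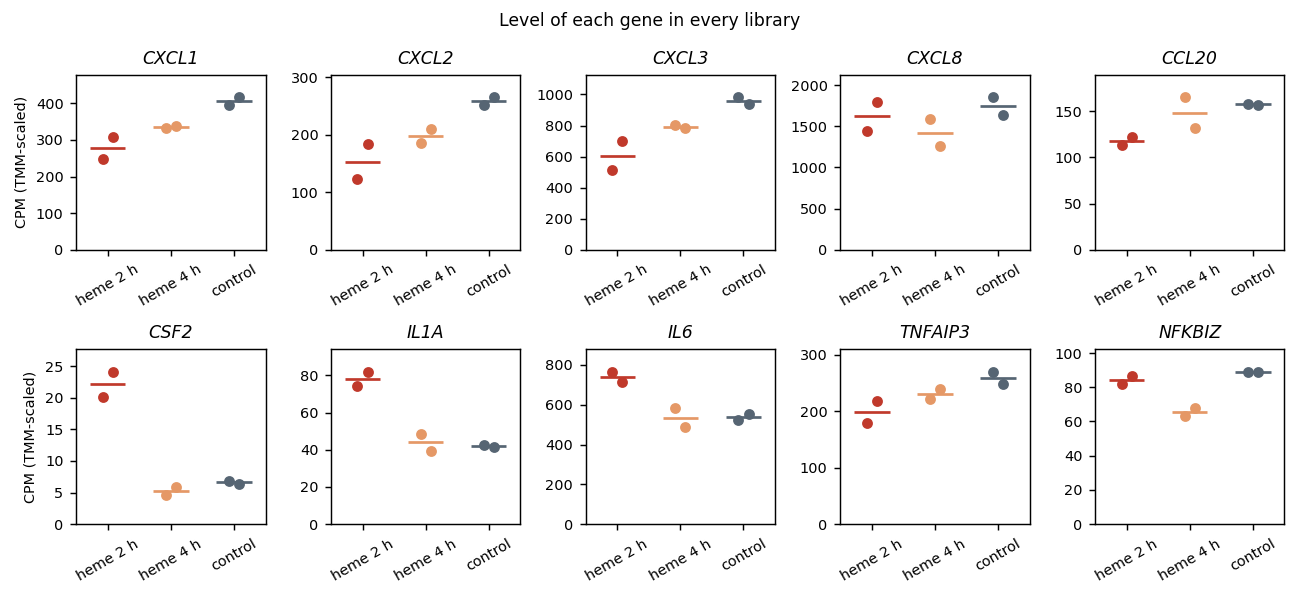
Level of each of the 10 genes in CPM (TMM-scaled) in every library, for heme 2 h, heme 4 h and control; points are libraries and bars the mean of 2. CSF2, IL1A and IL6 were highest at 2 h, whereas CXCL1, CXCL2, CXCL3, CCL20 and TNFAIP3 were lowest at 2 h.

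After 2 h of heme the 10 genes split. CSF2, IL1A and IL6 rose, by 3.35-fold, 1.86-fold and 1.38-fold, while CXCL1, CXCL2, CXCL3, CCL20 and TNFAIP3 fell, by between 1.31-fold and 1.68-fold. Of the 10, 3 were called higher, where 15.9% of all 16209 tested genes were, and 5 lower, where 15.8% of all were (edgeR's quasi-likelihood test, Benjamini-Hochberg adjusted p under 0.05 over all tested genes, two-sided; 31.7% in either direction). CXCL8 and NFKBIZ were not called. The median log2 fold change of the 10 genes was -0.25, and that of all tested genes 0.0171. The libraries of 9 of the 10 genes did not overlap between 2 h and control, as for 67.8% of all tested genes. Without control replicate 1 the genes called lower numbered 3 of the 10, CCL20 and TNFAIP3 losing their calls, and those called higher were still 3.

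**Figure D2:**
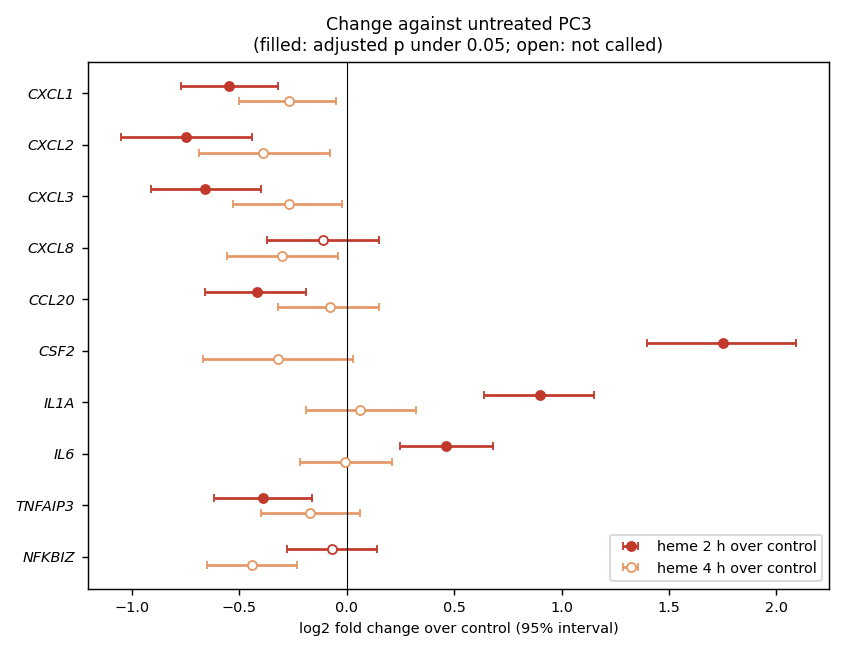
Log2 fold change of each gene over control at 2 h (upper mark) and 4 h (lower mark of each pair) with its 95% interval from the edgeR fit; filled marks passed an adjusted p of 0.05, open marks did not. At 2 h 8 of 10 genes were called, and at 4 h all 10 marks are open.

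CXCL1, CXCL2 and CXCL3 encode the growth-related chemokines, which attract neutrophils through the receptor CXCR2. CXCL2 (ENSG00000081041.8, chromosome 4, 74097035 to 74099293, minus strand) had 123 and 184 CPM at 2 h, 185 and 210 CPM at 4 h, and 251 and 265 CPM in controls. Both heme groups lay below both controls, and the lower 2 h library, replicate 1, stood well apart from the other. CXCL2 fell 1.68-fold at 2 h (log2 -0.75, SE 0.14, edgeR adjusted p = 0.00143), and the log2 value was -0.49 without 2 h replicate 1 and -1.09 without 2 h replicate 2. CXCL3 (ENSG00000163734.4, chromosome 4, 74036589 to 74038807, minus strand) had 512 and 702 CPM at 2 h, 801 and 783 CPM at 4 h, and 981 and 936 CPM in controls, so that the 3 groups did not overlap. It fell 1.58-fold at 2 h (log2 -0.66, SE 0.12, edgeR adjusted p = 0.000957). CXCL1 (ENSG00000163739.4, chromosome 4, 73869393 to 73871242, plus strand) had 248 and 307 CPM at 2 h, 332 and 338 CPM at 4 h, and 395 and 416 CPM in controls, again without overlap. It fell 1.46-fold at 2 h (log2 -0.55, SE 0.10, edgeR adjusted p = 0.00143). The reads of the 3 genes summed to 883 and 1193 CPM at 2 h, 1318 and 1332 CPM at 4 h, and 1627 and 1616 CPM in controls. The coding sequences of the 3 genes are between 90.7% and 94.4% identical. How counting treated reads that match more than 1 of them was not tested, and any reads it left out are missing from the sum too. Of the 50-base stretches of their main transcripts, 5.73% for CXCL1, 9.24% for CXCL2 and 5.26% for CXCL3 occur in another CXCL member, and 0% for CXCL8.

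CCL20 attracts lymphocytes and dendritic cells through CCR6. CCL20 (ENSG00000115009.12, chromosome 2, 227805739 to 227817564, plus strand) had 113 and 122 CPM at 2 h, 165 and 132 CPM at 4 h, and 158 and 157 CPM in controls. Both 2 h libraries were below all others, and the 4 h libraries lay on either side of the controls. It fell 1.34-fold at 2 h (log2 -0.42, SE 0.11, edgeR adjusted p = 0.0102); without control replicate 1 the call was lost at log2 -0.42 (adjusted p = 0.0649, with a range of 0.00129 to 0.0649 over all alternatives). CXCL8 encodes interleukin 8, which acts on neutrophils through CXCR1 and CXCR2. CXCL8 (ENSG00000169429.10, chromosome 4, 73740506 to 73743716, plus strand) had 1443 and 1799 CPM at 2 h, 1585 and 1256 CPM at 4 h, and 1851 and 1640 CPM in controls. The 2 h libraries overlapped the controls and the change was not called (log2 -0.11, SE 0.12, 95% interval -0.37 to 0.15, edgeR adjusted p = 0.539). The interval does not hold the fall of CXCL1, CXCL2 or CXCL3, but the difference between genes was not tested.

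CSF2, the gene of granulocyte-macrophage colony-stimulating factor, had the largest change of the 10. CSF2 (ENSG00000164400.5, chromosome 5, 132073790 to 132076170, plus strand) had 20.1 and 24.1 CPM at 2 h, 4.67 and 5.86 CPM at 4 h, and 6.88 and 6.3 CPM in controls. In raw counts these were 1141 and 1387 at 2 h, 241 and 318 at 4 h, and 357 and 340 in controls, so both 2 h libraries were far above all others. It rose 3.35-fold (log2 1.75, SE 0.16, edgeR adjusted p = 4.69e-06). IL1A encodes interleukin 1 alpha, a cytokine that cells release when damaged and that itself activates NF-kB. IL1A (ENSG00000115008.5, chromosome 2, 112773915 to 112784590, minus strand) had 74.5 and 82 CPM at 2 h, 48.7 and 39.2 CPM at 4 h, and 42.5 and 41.5 CPM in controls. It rose 1.86-fold (log2 0.90, SE 0.12, edgeR adjusted p = 0.000104). IL6 encodes interleukin 6, which signals through the receptor subunit IL6ST to STAT3. IL6 (ENSG00000136244.11, chromosome 7, 22725884 to 22732002, plus strand) had 766 and 714 CPM at 2 h, 582 and 486 CPM at 4 h, and 523 and 551 CPM in controls. It rose 1.38-fold (log2 0.46, SE 0.10, edgeR adjusted p = 0.00314). For all 3 genes both 2 h libraries were above every 4 h and control library, and leaving out any single library left log2 values of 1.59 to 1.87 for CSF2, 0.80 to 0.96 for IL1A and 0.41 to 0.49 for IL6. IL6 overlaps STEAP1B on the other strand, which had at most 21 counts in a library.

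Of the inhibitor genes, TNFAIP3 fell at 2 h and NFKBIZ was not called. TNFAIP3 encodes a ubiquitin-editing enzyme that ends signalling to NF-kB. TNFAIP3 (ENSG00000118503.14, chromosome 6, 137867188 to 137883312, plus strand) had 179 and 218 CPM at 2 h, 221 and 240 CPM at 4 h, and 270 and 249 CPM in controls. Both heme groups lay below both controls, and the level at 2 h fell 1.31-fold (log2 -0.39, SE 0.11, edgeR adjusted p = 0.0128). This call was lost without control replicate 1 (log2 -0.34, adjusted p = 0.131) and without 2 h replicate 1 (log2 -0.26, adjusted p = 0.084), with a range of 0.000304 to 0.131 over all alternatives. NFKBIZ encodes a nuclear member of the IkB family that also helps to activate a subset of NF-kB targets, IL6 among them. NFKBIZ (ENSG00000144802.11, chromosome 3, 101827991 to 101861022, plus strand) had 82.2 and 86.7 CPM at 2 h, 63.2 and 67.8 CPM at 4 h, and 89.1 and 88.7 CPM in controls. At 2 h it was not called (log2 -0.07, SE 0.10, 95% interval -0.28 to 0.14, edgeR adjusted p = 0.604).

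Ratios of counts within a library do not depend on how libraries are scaled. CSF2 reads per CXCL2 read numbered 0.163 and 0.131 at 2 h, 0.0252 and 0.028 at 4 h, and 0.0274 and 0.0238 in controls. IL6 reads per CXCL3 read numbered 1.5 and 1.02 at 2 h, 0.726 and 0.62 at 4 h, and 0.533 and 0.588 in controls, while IL1A reads per CXCL3 read numbered 0.145 and 0.117 at 2 h, 0.0607 and 0.05 at 4 h, and 0.0433 and 0.0444 in controls. For all 3 ratios both 2 h libraries lay above every other library. Each of the 3 sets a gene called higher at 2 h over a gene called lower. This order therefore follows from the levels above and is not a separate finding. CXCL8 reads per CXCL3 read were also higher at 2 h, at 2.82 and 2.56, than at 4 h, at 1.98 and 1.6, or in controls, at 1.89 and 1.75. NFKBIZ reads per TNFAIP3 read numbered 0.46 and 0.398 at 2 h, 0.285 and 0.283 at 4 h, and 0.33 and 0.355 in controls, so the balance of these inhibitors lay above the controls at 2 h and below them at 4 h. CXCL2 reads per CXCL1 read differed less, at 0.498 and 0.598 at 2 h, 0.557 and 0.62 at 4 h, and 0.635 and 0.636 in controls.

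**Figure D3:**
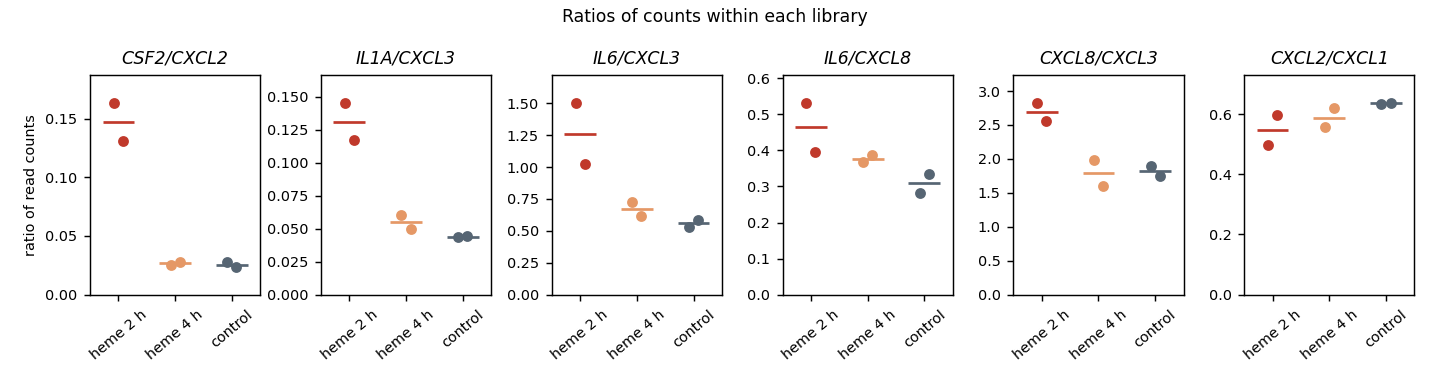
Ratio of read counts of gene pairs within each library (y axis, no unit) for heme 2 h, heme 4 h and control; points are libraries and bars the mean of 2. The CSF2 to CXCL2 ratio was 0.163 and 0.131 at 2 h and between 0.0238 and 0.028 in all other libraries.

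After 4 h of heme none of the 10 genes was called against control by edgeR's quasi-likelihood test (0 of 10, where 0.0308% of all tested genes were called, 5 of 16209, with 0.0247% called higher and 0.00617% lower). Before adjustment 5 of the 10 had p under 0.05, against 583 of 16209 genes, and DESeq2 called 1, NFKBIZ. The libraries of 7 of the 10 did not overlap the controls, where those of 34.4% of all tested genes did not overlap in either direction. All 7 lay on the low side, and the share of all genes on that side was not computed. Among the 7 were CXCL1, CXCL2, CXCL3 and CXCL8, which lie close together on chromosome 4. NFKBIZ was farthest from control, 1.36-fold lower (log2 -0.44, SE 0.10, edgeR adjusted p = 0.535; DESeq2 log2 -0.43, adjusted p = 0.0356, with a range of 0.0356 to 1 over all alternatives). CXCL2 (log2 -0.39, 95% interval -0.69 to -0.08), CXCL8 (log2 -0.30, interval -0.56 to -0.04), CXCL1 (log2 -0.27, interval -0.50 to -0.05) and CXCL3 (log2 -0.27, interval -0.53 to -0.02) had unadjusted intervals below 0, each with edgeR adjusted p = 1. CSF2 (log2 -0.32, interval -0.67 to 0.03), TNFAIP3 (log2 -0.17, interval -0.40 to 0.06) and CCL20 (log2 -0.08, interval -0.32 to 0.15) had intervals that include 0, as did IL1A (log2 0.06, interval -0.19 to 0.32) and IL6 (log2 -0.01, interval -0.22 to 0.21). Without 4 h replicate 1 the log2 value was -0.48 for CXCL8, -0.17 for CSF2 and -0.11 for TNFAIP3, and without 4 h replicate 2 it was -0.13 for CXCL8 and -0.49 for CSF2. TNFAIP3 was also at -0.11 without control replicate 1. The median log2 of the 10 genes was -0.27, and that of all tested genes -0.00282.

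Set directly against 2 h, the 4 h libraries had 2 of the 10 genes higher, where 14.0% of all tested genes were, and 4 lower, where 14.1% of all were (edgeR adjusted p under 0.05; 28.1% in either direction). The libraries of 9 of the 10 did not overlap, as for 62.3% of all tested genes. The 2 h libraries are the same as those set against control above. CSF2 was 4.19-fold lower at 4 h than at 2 h (log2 -2.07, SE 0.16, edgeR adjusted p = 1.01e-06), IL1A 1.78-fold lower (log2 -0.83, SE 0.12, edgeR adjusted p = 0.000173) and IL6 1.39-fold lower (log2 -0.47, SE 0.10, edgeR adjusted p = 0.00296). NFKBIZ, not called at 2 h, was 1.29-fold lower at 4 h than at 2 h (log2 -0.37, SE 0.10, edgeR adjusted p = 0.0127), a call lost without control replicate 2 (log2 -0.34, adjusted p = 0.0504) or 4 h replicate 1 (log2 -0.31, adjusted p = 0.104). CXCL3 (log2 0.38, SE 0.12, edgeR adjusted p = 0.0259) and CCL20 (log2 0.34, SE 0.11, edgeR adjusted p = 0.034) were higher at 4 h than at 2 h. The CXCL3 call was lost without 2 h replicate 1 (log2 0.18, adjusted p = 0.215), 4 h replicate 1 (log2 0.37, adjusted p = 0.139) or 4 h replicate 2 (log2 0.43, adjusted p = 0.0739), and its value was 0.65 without 2 h replicate 2. The CCL20 call was lost without 2 h replicate 1 (log2 0.28, adjusted p = 0.0982) or 4 h replicate 1 (log2 0.17, adjusted p = 0.336). The genes called higher thus numbered 0 without 2 h replicate 1 or without 4 h replicate 1, 1 without 4 h replicate 2 and 5 without 2 h replicate 2, while those called lower numbered between 3 and 5. CXCL1 (log2 0.27, edgeR adjusted p = 0.0648), CXCL2 (log2 0.36, edgeR adjusted p = 0.0713), TNFAIP3 (log2 0.22, edgeR adjusted p = 0.139) and CXCL8 (log2 -0.19, edgeR adjusted p = 0.26) were not called. These values rested on single 2 h libraries. Without 2 h replicate 1 they were log2 0.13 for CXCL1, 0.10 for CXCL2, 0.09 for TNFAIP3 and -0.34 for CXCL8, which was then called lower (adjusted p = 0.0416). Without 2 h replicate 2 they were 0.46 for CXCL1, 0.70 for CXCL2 and 0.39 for TNFAIP3, all 3 then called higher, and 0.00 for CXCL8. CXCL8 was also at -0.36 without 4 h replicate 1 and at -0.01 without 4 h replicate 2, and CXCL2 was called higher without either control.

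CXCL8, CXCL1, CXCL3 and CXCL2 lie within 359 kb of chromosome 4 (GRCh38, 73740506 to 74099293) that holds 9 protein-coding genes of GENCODE release 29, all of them chemokine genes or their platelet relatives. PF4V1 and PF4 had at most 1 and 6 counts, and 7 were tested. In genome order the log2 fold changes at 2 h were -0.11 for CXCL8, -0.33 for CXCL6 (not called, edgeR adjusted p = 0.0651), -0.55 for CXCL1, -0.36 for PPBP (edgeR adjusted p = 0.0241), -0.50 for CXCL5 (edgeR adjusted p = 0.00704), -0.66 for CXCL3 and -0.75 for CXCL2. At 4 h the same 7 genes stood between log2 -0.39 and -0.13, and 0 were called by edgeR. CXCL5, a neutrophil chemokine like its neighbours, had 91675 and 130043 counts at 2 h, 131943 and 128082 at 4 h, and 145973 and 143210 in controls. Its 2 h libraries were lower than both controls, and its log2 value was -0.28 without 2 h replicate 1 and -0.78 without 2 h replicate 2.

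**Figure D4:**
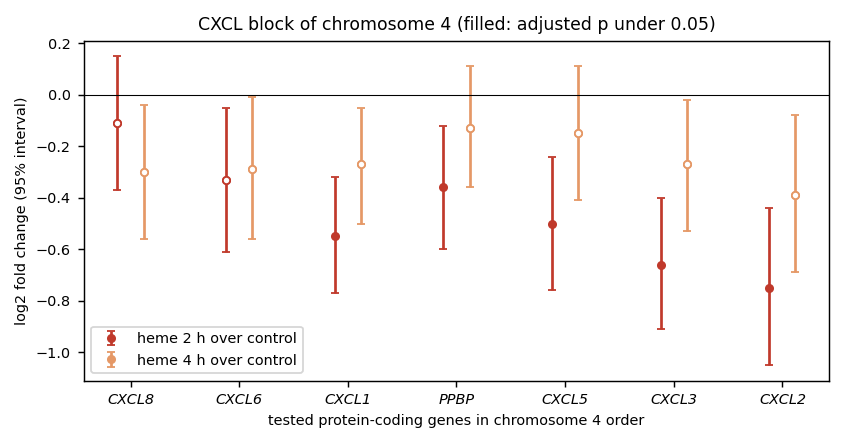
Log2 fold change over control with its 95% interval at 2 h (left mark of each pair) and 4 h (right mark) for the 7 tested genes of the CXCL block, in the order in which they lie on chromosome 4; filled marks passed an adjusted p of 0.05. All 7 genes lie below 0 at both times, from -0.11 for CXCL8 to -0.75 for CXCL2 at 2 h.

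The 3′ untranslated regions of the 10 genes, taken from the main coding transcript of each in GENCODE release 29, held between 3 and 10 copies of ATTTA, the core of AU-rich elements. That made a median of 7.13 per kb, where 13580 tested genes had a median of 1.52 per kb. The longer motif TTATTTATT, which contains ATTTA, was found in 6 of the 10 and in 8.11% of those tested genes. CSF2 had the densest set, at 25.16 ATTTA per kb, and NFKBIZ the sparsest, at 1.82 per kb. The richest 30-base stretch is printed for the cytokine with the largest rise and for chemokines that fell or were not called, with each ATTTA in capitals.
CSF2, chr5:132076072-132076101, plus strand: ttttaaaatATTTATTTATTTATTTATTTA
CXCL2, chr4:74097590-74097619, minus strand: aagtcttctATTTATTTATTTATTTATTTA
CXCL1, chr4:73870665-73870694, plus strand: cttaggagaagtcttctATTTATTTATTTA
CXCL8, chr4:73743108-73743137, plus strand: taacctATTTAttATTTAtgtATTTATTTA
CSF2, which rose, and CXCL2, which fell, hold the same run of 5 overlapping copies in these stretches. The richest stretches of the other genes, not printed, held 3 copies in IL1A, 2 in IL6 and CXCL3, and 1 in CCL20, TNFAIP3 and NFKBIZ. Any part of these elements in the changes was not tested.

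Other genes of the pathway were counted in lists, to be read against the 15.9% of all tested genes called higher and the 15.8% called lower at 2 h. Of 15 tested Rel proteins and activating kinases, 4 rose and 2 fell at 2 h (median log2 0.11), the falling share being near that of all tested genes. NFKB2, the precursor of the p52 subunit, had 130 ± 7.09 CPM at 2 h and 85 ± 2.06 CPM in controls (SD, n = 2; log2 0.61, SE 0.10, edgeR adjusted p = 0.000415). Its partner RELB (log2 0.64, SE 0.14) and the kinase IKBKE (log2 0.54, SE 0.12) rose too, while the kinases TBK1 (log2 -0.91, SE 0.14) and CHUK (log2 -0.39, SE 0.12) fell. Of 13 tested IkB proteins and other feedback inhibitors, 4 rose and 2 fell (median log2 0.19), where 15.9% of all tested genes rose and 15.8% fell. BCL3, a nuclear IkB protein that works with p50 and p52 dimers, had 70 and 49 CPM at 2 h, 13.4 and 16.8 CPM at 4 h, and 14.8 and 15.6 CPM in controls. It rose at 2 h (log2 1.97, SE 0.16, edgeR adjusted p = 1.98e-06), as did TNIP3, a partner of TNFAIP3 (log2 1.33, SE 0.34, edgeR adjusted p = 0.00912). The deubiquitinase OTULIN (log2 -0.86, SE 0.11, edgeR adjusted p = 6.5e-05) and NFKBID (log2 -0.66, SE 0.18, edgeR adjusted p = 0.0138) fell.

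Among 14 tested chemokines and cytokines outside the 10, 6 rose and 1, CXCL5, fell at 2 h (median log2 0.26), against 15.9% and 15.8% of all tested genes. CSF1, the macrophage growth factor, rose (log2 1.04, SE 0.13, edgeR adjusted p = 5.83e-05), as did TNFSF15 (log2 0.78, SE 0.20, edgeR adjusted p = 0.00907). TNF was scarce, with 42 and 38 counts at 2 h, 6 and 5 at 4 h, and 3 and 3 in controls; the ratio of summed counts at 2 h to control, per read counted, was 13 with an exact 95% interval of 5.7 to 36.3 for counting error only (edgeR adjusted p = 0.000459). CXCL10, CXCL11, CCL2, CCL5, CX3CL1 and TSLP had at most 7 counts in any library and were not tested. Of 23 other tested NF-kB targets, 12 rose and 3 fell (median log2 0.25), where 15.9% of all tested genes rose and 15.8% fell, so the falling share was near that of all genes. PTGS2, the inducible cyclooxygenase, had 1675 ± 246 CPM at 2 h and 981 ± 70.4 CPM in controls (SD, n = 2; log2 0.77, SE 0.11, edgeR adjusted p = 0.00012). TNFAIP2 (log2 0.85, SE 0.10), NINJ1 (log2 0.95, SE 0.14) and the apoptosis inhibitor BIRC3 (log2 0.90, SE 0.14) rose, and BCL2A1 (log2 -0.73, SE 0.14), BIRC2 (log2 -0.51, SE 0.12) and CD83 (log2 -0.31, SE 0.11, edgeR adjusted p = 0.0488) fell.

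Of the receptors through which the 10 gene products act, CXCR2, CCR6, CSF2RA and CSF2RB had at most 4 counts in any library and were not tested, as was TNFRSF1B, a receptor for tumour necrosis factor. CXCR1, IL1R1, IL1R2, IL1RAP, IL6R and IL6ST were tested. Of 18 tested receptors and adaptors 1, TNFRSF1A, another receptor for tumour necrosis factor, rose at 2 h (log2 0.69, SE 0.11, edgeR adjusted p = 0.000559). The decoy receptor IL1R2 (log2 -1.14, SE 0.24), the interleukin 1 receptor IL1R1 (log2 -0.67, SE 0.22) and the adaptor TRAF2 (log2 -0.88, SE 0.12) fell, which made 3 lower. Those counts are below and near the 15.9% of all tested genes called higher and the 15.8% called lower. TLR2 (log2 -0.52, SE 0.18) and TLR4 (log2 -0.65, SE 0.16) were called lower at 4 h than at 2 h, though not at 2 h against control. Of 15 tested genes for the decay of cytokine messages 4 rose and 4 fell at 2 h (median log2 -0.14), where 15.9% of all tested genes rose and 15.8% fell. ZC3H12A, an endonuclease that cleaves IL6 messages, had 293 and 249 CPM at 2 h, 142 and 150 CPM at 4 h, and 155 and 163 CPM in controls (log2 0.77 at 2 h, SE 0.10, edgeR adjusted p = 8.79e-05). ZC3H12C (log2 0.73, SE 0.10) and ZFP36, which binds AU-rich elements (log2 0.53, SE 0.15), rose, while the decapping enzyme DCP2 (log2 -0.74, SE 0.14) and RC3H1 (log2 -0.55, SE 0.14) fell. ZFP36L1 was called higher at 4 h than at 2 h (log2 0.33, SE 0.10). At 4 h against control 0 genes of these 6 lists were called by edgeR, and the lists' medians lay between -0.02 and 0.01.

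**Figure D5:**
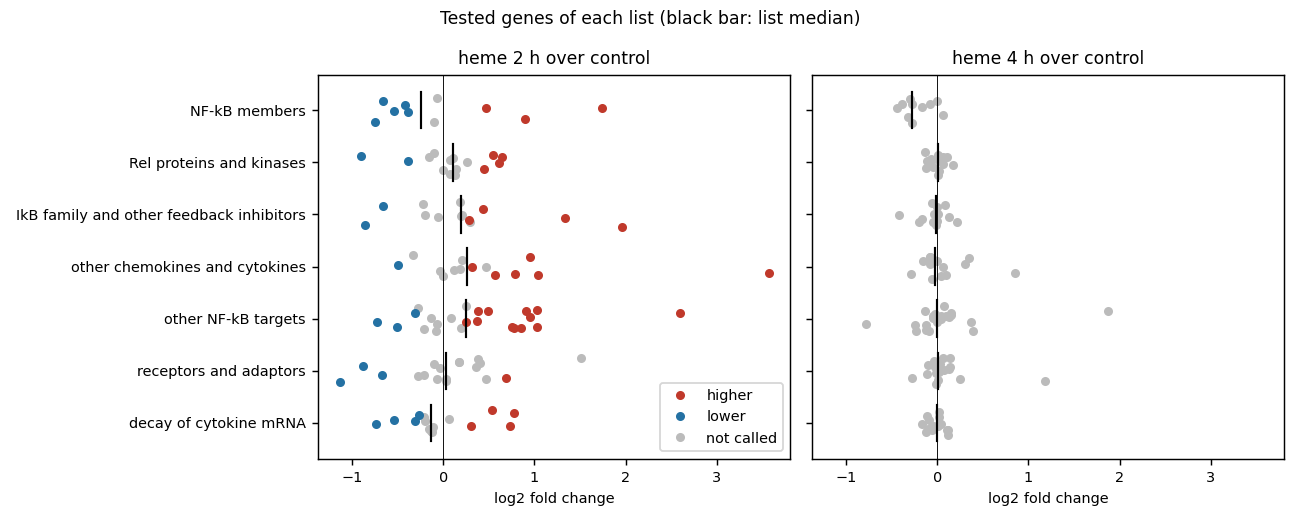
Log2 fold change over control of every tested gene of each list at 2 h (left) and 4 h (right); rows are the 10 genes and the 6 other lists, colours mark genes called higher or lower at an adjusted p of 0.05, and black bars are list medians. At 2 h every list holds genes on both sides of 0, and at 4 h no gene is called.

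Single libraries moved the counts of these lists at 2 h. Without control replicate 1 the rising genes numbered 1 among the feedback inhibitors, 2 among the other cytokines and 2 among the decay genes, and without control replicate 2 they numbered 2 among the Rel proteins and kinases, 2 among the inhibitors and 7 among the other targets. Without 2 h replicate 1 they numbered 2 among the inhibitors, 3 among the other cytokines and 2 among the receptors. The falling genes numbered 1 among the Rel proteins and kinases without control replicate 1 or without 2 h replicate 1, and 1 among the inhibitors without control replicate 2. Among the decay genes 2 fell without either control or without 2 h replicate 1, and 7 fell without 2 h replicate 2, which also gave 6 falling receptors and 2 falling cytokines. Of the genes named, the calls of CHUK, TNFSF15, ZFP36 and IL1R1 were lost without control replicate 1 or without 2 h replicate 1, IL1R1 also without 4 h replicate 1, TNIP3 without control replicate 1, and NFKBID and IKBKE without control replicate 2. CD83 lost its call without most single libraries, and also with only the compared groups (adjusted p = 0.0568) and without the filter on low counts (adjusted p = 0.0592). TLR2 lost its call without most single libraries and also with DESeq2, with its size factors, without the filter and with only the compared groups (adjusted p = 0.0576 to 0.0795 over these 4), and IL1R1 with only the compared groups (adjusted p = 0.0609). Calls were also lost for TLR4 without either 4 h library, and ZFP36L1 without control replicate 1, 2 h replicate 1 or either 4 h library. RC3H1 was at log2 -0.33 without 2 h replicate 1 and -0.83 without 2 h replicate 2, and TLR4 at -0.43 without 2 h replicate 2.

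Likeness of pattern was described for CXCL2 and CSF2 by Pearson's r of log2 CPM over the 6 libraries, among the 5614 genes that averaged 2 CPM or more and spanned 0.5 or more (log2). The libraries share groups and scaling, and r is given without a test. The 5 genes most like CXCL2 were C18orf25 (r = 0.9953), CXCL1 (r = 0.9877), TRIP13 (r = 0.9861), GON7 (r = 0.9853) and ZWINT (r = 0.9830). The 5 most like CSF2 were ATP2B4 (r = 0.9962), GRB10 (r = 0.9958), MAGI1 (r = 0.9958), CGNL1 (r = 0.9949) and CYP26B1 (r = 0.9939). For the genes most like CSF2 the log2 fold changes at 2 h ran from 0.45 for ATP2B4 to 0.93 for CGNL1, below the 1.75 of CSF2. For those most like CXCL2 they ran from -0.37 for C18orf25 to -0.55 for CXCL1, smaller falls than the -0.75 of CXCL2. Within the 10 genes r was 0.97 between TNFAIP3 and CXCL2 and 0.96 between IL1A and IL6, and CXCL8 reached at most 0.61 with any other, NFKBIZ.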

How the data were processed

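RNA sequencing of PC3 cells gave 6 libraries, 2 per group. The authors deposited unnormalized counts of reads for each gene symbol, laid out as HTSeq writes them. Per the submitters' processing notes, the authors used STAR, Trimmomatic, deepTools and SAMtools, with hg38 as the build; tool versions, the annotation release and the strand setting are not given here. Overlapping genes therefore cannot be told apart. Library sizes and tests left out the 5 summary lines; reads outside genes made up 5.48% to 6.88% of a library and ambiguous reads 4.23% to 4.48%.

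The test was that of edgeR 4.0.16 (R 4.3.3) with TMM scaling, filterByExpr (minimum count 10), 1 quasi-likelihood fit over all 6 libraries (3 residual degrees of freedom) and Benjamini-Hochberg adjustment over 16209 genes. SE and 95% intervals derive from the F statistic. DESeq2 1.42.0, its size factors, no filter, a replicate block, only the compared groups and leaving out each library were the alternatives; applying them to the other lists, and the search for ATTTA and TTATTTATT, were added after the data were seen. Identifiers, coordinates and exon lengths come from GENCODE release 29, which held 33164 of the 33514 symbols once. The members and lists were chosen with earlier results of these data known. All members were named; of each other list, the 4 genes with the smallest p at 2 h and any called in a direction with 3 or fewer calls. No replicate pair was one library deposited again (chi-square per gene 9.11 to 34.2). A planned comparison of proteins was not run, and some marker genes are not reported here.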

Additional observations from a re-analysis of the deposited data

Results flagged for a closer look

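For 6 of the 10 genes the response at 4 h differed from that at 2 h by a test of the difference itself, as for 28.1% of all tested genes, and these are listed for that reason (edgeR, log2 of 4 h over 2 h). The value was -2.07 for CSF2, -0.83 for IL1A, -0.47 for IL6 and -0.37 for NFKBIZ, all lower at 4 h, and 0.38 for CXCL3 and 0.34 for CCL20, both higher at 4 h. Of these, CSF2, IL1A and IL6 were called under every alternative run, with adjusted p-values of at most 0.00045, 0.00689 and 0.047.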

How the results depend on the processing

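At 2 h the 3 rising genes were called under every alternative, and the 5 falling ones under every alternative other than leaving out a library. Over the alternatives that each left out 1 library, the genes called at 2 h against control ranged from 2321 to 6254, those at 4 h against control from 4 to 16, and those at 4 h against 2 h from 2199 to 5819. Against 5136 in the main test, 2321 were called at 2 h without control replicate 1 and 2979 without control replicate 2. Against 5, 16 and 15 were called at 4 h without 2 h replicate 1 and without 2 h replicate 2. Against 4558, 2199 were called between the times without 4 h replicate 1. Among the 10 genes the same ranges were 3 to 3 higher and 3 to 5 lower at 2 h, 0 to 0 in either direction at 4 h, and 0 to 5 higher and 3 to 5 lower at 4 h against 2 h. Genes called at 4 h against control numbered 10 without the filter on low counts, 13 with only the compared groups in the fit and 15 with DESeq2, which called 1 of the 10 lower. Among the 10, those called higher at 4 h against 2 h numbered 4 without the filter, 4 with DESeq2 and 4 with the replicate block, against 2 in the main test.

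Deviations of same-numbered libraries correlated at -0.0908, 0.065 and -0.0162 between groups across genes. No broad shift shared by a replicate number was seen, but this cannot tell whether same-numbered libraries were cultured or prepared together. With the block 4809, 6 and 4205 genes were called in the 3 comparisons, and CXCL1 (adjusted p = 0.0494) and CXCL2 (adjusted p = 0.0214) were added at 4 h against 2 h; it changed no other call among the 10, and CD83 at 2 h was not called with it (adjusted p = 0.0899).

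Some log2 values near 0 changed sign when 1 library was left out. CXCL8 at 2 h ranged from -0.30 to 0.04, above 0 only without 2 h replicate 1, and at 4 h against 2 h from -0.36 to 0.00. At 4 h against control CCL20 ranged from -0.25 to 0.07, IL1A from -0.10 to 0.22 and IL6 from -0.14 to 0.12, with IL6 at 0.03 without control replicate 2. IL6 at 4 h was also 0.01 with DESeq2, with its size factors or without the filter. The cause of these differences was not tested. Depth limited the scarce genes: 3 counts, the limit that a count of 0 allows, are 0.0565 CPM in the shallowest library, for counting error only.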

Other observations

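Values follow for the nearest protein-coding genes beside IL1A, CSF2 and CCL20. IL1B, next to IL1A on chromosome 2 and itself an NF-kB target, had 70399 and 75649 counts at 2 h, 67882 and 60045 at 4 h, and 66122 and 69933 in controls, and was not called at 2 h (log2 -0.01, edgeR adjusted p = 0.953). CKAP2L, on the other side of IL1A, fell (log2 -1.12, edgeR adjusted p = 3.06e-05). IL3, next to CSF2 on chromosome 5, had 0 counts in every library, and P4HA2 on the far side was not called (log2 -0.10, edgeR adjusted p = 0.565). DAW1, next to CCL20, fell at 2 h (log2 -1.38, edgeR adjusted p = 0.000176) and was higher at 4 h than at 2 h (log2 1.39, edgeR adjusted p = 0.000154).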
